A study of Rattus norvegicus with 48 samples.

Results

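The genes described here are those whose difference between a steatohepatitis diet and its control diet grew from week 4 to week 8 and again from week 8 to week 12 in rat liver. There were 112 such genes among the 12029 with a mean of at least 1 CPM (the count of a gene divided by all reads on genes of the animal and scaled to 1000000) over 48 livers. They were chosen by a rule on measured values. At each week, D was the mean log2(CPM + 1) of the 8 CDAA animals minus that of the 8 CSAA animals, minus the median of this difference over the 12029 genes, which amounted to 0.33, 0.54 and 0.63 at weeks 4, 8 and 12. Members had a D that rose by at least 0.5 at each step and was at least 1 at week 12. Because these values selected the genes, all values of D, of its steps and of the 6 groups are given as a description. Tests across all genes cover the members too, and counts of members called are set beside the share of all genes called, with nothing read from them.

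The animals were male Wistar rats, 6 weeks old when obtained and housed in pairs. CDAA is a choline-deficient diet defined by its amino acids, here with 1% cholesterol (spelled CDDA in the sample labels), and CSAA is the choline-supplemented control. The diets also differed in methionine, 0.17% in CDAA against 0.4% in CSAA. Fat made up 31% of the energy in CDAA and less in CSAA, which held more carbohydrate. Choline, methionine, cholesterol, fat and the other parts of the diet therefore cannot be told apart. Polyadenylated RNA of whole liver was sequenced from 8 animals per diet after each of 4, 8 and 12 weeks, each animal being sampled once.

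Choline is needed to make phosphatidylcholine, which hepatocytes use to export fat in lipoproteins. Rats that lack it store fat in the liver, and with time on the diet inflammation, activation of stellate cells and deposition of fibrous matrix follow. In RNA of whole liver, more cells of a type and more RNA per cell cannot be told apart.

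The deposited tables list Ensembl identifiers alone, and gene names were not used here. The members are therefore described as a group and by their place in it, and 2 are given by identifier. The liver label was not checked against marker genes, and cell types, pathways, promoters and proteins of the members were not analysed here. The authors' counts summed to 13619274 reads in the shallowest library and 22284359 in the deepest, and no pair of the 48 columns held identical values.

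A few libraries stood apart from their groups across the members, and the main values are also given without them. Animal 303 (CDAA, week 4) had a low value, animals 504 (CSAA, week 8) and 908 (CSAA, week 12) had high values, and animal 1102 (CDAA, week 12) lay below its group. What set these animals apart was not tested.

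The median D of the 112 members went from 0.65 at week 4 through 1.48 at week 8 to 2.27 at week 12. At week 4 the members ranged from -2.10 to 2.73, at week 8 from -0.06 to 3.46 and at week 12 from 1.03 to 4.33. For comparison, the 75th percentile of D over all 12029 genes was 0.37, 0.47 and 0.52 at the same weeks. The members were spread over a wide range at week 4 as well as at week 12. The median D of the same members was 0.71, 1.59 and 2.37 without animals 303, 504 and 908.

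**Figure D1:**
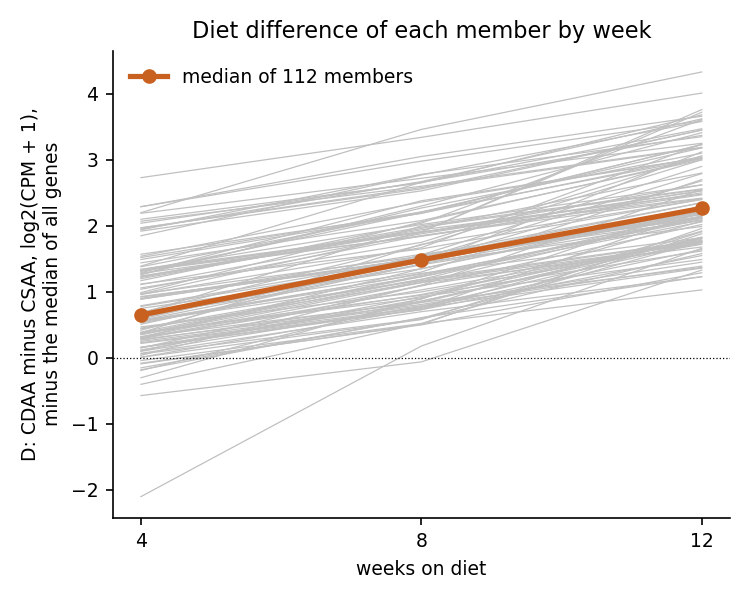
D of each member (grey lines) and the median of the 112 members (orange) at weeks 4, 8 and 12, on the log2(CPM + 1) scale. The median goes from 0.65 through 1.48 to 2.27, and 1 member starts far below 0, at -2.10.

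The first step, from week 4 to week 8, had a median of 0.71 and ranged from 0.51 to 2.28. The second step, from week 8 to week 12, had a median of 0.81 and ranged from 0.51 to 1.86. The second step was the larger in 66 members and the first in 46. Over both steps D grew by a median of 1.53, with a range from 1.05 to 3.76. The standard error of a step, from the spread of the 8 animals in each of the 4 groups it rests on, had a median of 0.30 for the first step and of 0.34 for the second. Over all genes these medians were 0.16 and 0.15. Of the 112 members, 78 had a first step of at least 2 standard errors, 82 had a second step of that size and 66 had both. For the other 46, at least 1 of the steps was under 2 standard errors. The rule chose the members by the size of these steps, so the counts describe them and are no test. They have no share of all genes beside them, and nothing is read from them. Without animals 303, 504 and 908 the median standard errors of the members fell to 0.22 and 0.27, while the median steps were 0.74 and 0.83.

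At week 4, D was already at or above 0 in 102 of the 112 members. It was at least 1 in 40 members, between 0 and 1 in 62 and below 0 in 10, and without animals 303, 504 and 908 these classes held 46, 53 and 13 members. In the 40 early members, the median of the mean CPM was 1.58 on CSAA and 9.27 on CDAA at week 4, and 1.91 on CSAA and 34.5 on CDAA at week 12. In the 62 members of the middle class, the CDAA median went from 1.90 CPM at week 4 through 6.53 at week 8 to 12.4 at week 12, with 0.562, 0.890 and 0.769 CPM on CSAA. The 10 members below 0 stood at a median of 0.793 CPM on CDAA and 0.647 on CSAA at week 4, and reached 6.55 CPM on CDAA at week 12 against 0.691 on CSAA. On the D scale the median first step of the 3 classes was 0.69, 0.72 and 0.77, and the median second step was 0.78, 0.82 and 1.17. The median D at week 12 was 3.19 in the early members, against 2.10 and 1.71 in the other classes. Each step had to be at least 0.5, so like steps and a high end after a high start follow largely from the rule. The 1 CPM added before taking logs also holds down the steps of weakly expressed members.

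On CSAA most members were weakly expressed. Across the 112, the median of the mean CPM was 0.816, 1.47 and 1.39 at weeks 4, 8 and 12. Over all 12029 genes the median was 11.9, 12.6 and 11.8. In the 1542 other genes with a D of at least 1 at week 12 it was 2.43, 3.23 and 2.66. A low level on CSAA was thus shared with other genes raised by the diet. On CDAA the members stood at 3.47 CPM at week 4, 10.1 at week 8 and 20.3 at week 12, with 16.6, 19.1 and 20.7 for all genes. The 1542 other genes stood at 9.79, 13.9 and 16.6 CPM. On the RPKM scale, which divides by gene length and can be compared between genes, the median level of the members on CDAA was 0.924, 2.93 and 5.66 at weeks 4, 8 and 12, and at week 12 single members lay between 0.306 and 381 RPKM. Over all 12029 genes the median on CDAA was 6.78, 8.08 and 8.66 RPKM. Per length, the median member thus stayed below the median gene of the CDAA liver at each week. On CSAA at week 12 the median was 0.355 RPKM in the members and 4.98 RPKM over all genes.

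At week 4, 24 members had 0 reads in at least 1 CSAA animal, which at the depth of these animals allows a level of up to 0.141 to 0.220 CPM (3 reads, counting error only). On CDAA, 1 member had 0 reads in an animal at week 4, and at weeks 8 and 12 every member was detected in every CDAA animal. Detection on CDAA and low levels on CSAA follow in part from how the members were chosen. The filter on mean CPM could be met through CDAA alone, and D at week 12 had to be at least 1. The members' share of all reads on genes had a median of 0.0575% on CSAA and 0.208% on CDAA at week 4, 0.0462% and 0.411% at week 8, and 0.0347% and 0.589% at week 12. A single member, described below, held 31.1% of the members' reads in the median CDAA animal of week 12. The median shares at week 12 were 0.0341% on CSAA and 0.590% on CDAA without animals 303, 504, 908 and 1102. Without that 1 member, in all animals, they were 0.0238% on CSAA and 0.412% on CDAA.

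The growth of D could come from a rise on CDAA, a fall on CSAA or both, and in most members it came from the rise on CDAA. From week 4 to week 8 the mean log2(CPM + 1) on CDAA rose in all 112 members, by a median of 1.21. From week 8 to week 12 it rose in 110 members, by a median of 0.82, and 110 members rose at both steps. Over all genes these medians were 0.20 and 0.08. The median rise of the members was 1.03 at the first step and 0.82 at the second without animals 303, 504 and 908. In CPM, the CDAA mean of week 12 was a median of 5.17 times that of week 4, with a range from 1.05 to 21.5 times. The first interval brought a median of 2.92 times and the second 1.85 times.

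On CSAA the members changed little. The change from week 4 to week 12 lay within 0.5 of 0 in 95 members, fell by more than that in 6 and rose by more in 11. In its 2 steps, the CSAA mean rose in 101 members from week 4 to week 8, by a median of 0.23, and rose in 31 from week 8 to week 12, with a median change of -0.08. This CSAA rise at week 8 was small without the animals that stood apart. Leaving out animals 303, 504 and 908, the median change on CSAA was 0.07 at the first step and -0.07 at the second, and 77 and 38 members were above 0. The number of members with a CSAA rise of more than 0.5 over both steps was then 5.

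**Figure D2:**
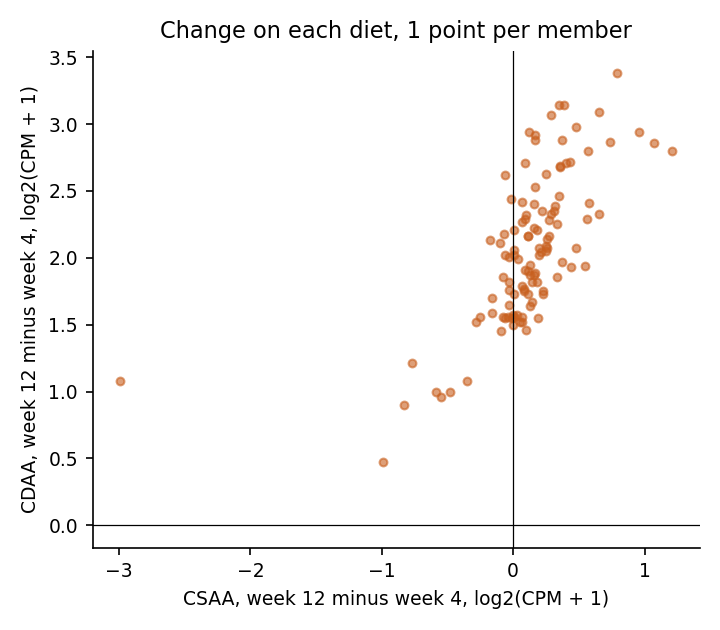
Change in mean log2(CPM + 1) from week 4 to week 12 on CSAA (horizontal axis) and on CDAA (vertical axis), 1 point per member. All 112 points lie above 0 on CDAA, whereas on CSAA 83 lie above 0, and 1 point lies far to the left at -2.99.

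In 2 members the CSAA fall from week 4 to week 12 was larger than the CDAA rise. One of them had the smallest CDAA rise of all members, 0.47, with a CSAA change of -0.99. Its CSAA median went from 10.3 CPM at week 4 to 7.33 at week 8 and 5.11 at week 12. On CDAA its median was 15.5, 19.3 and 19.1 CPM. Its growing difference thus rested on the control animals for the larger part.

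The other was unlike the rest of the group. It had the lowest D at week 4, -2.10, and the largest first step, 2.28 with a standard error of 1.38, followed by a second step of 1.48 with a standard error of 1.29. On CSAA the lowest, median and highest animals had 5.32, 154 and 240 CPM at week 4, 0.690, 60.7 and 80.6 CPM at week 8, and 0.379, 28.1 and 93.0 CPM at week 12. On CDAA they had 0.259, 57.0 and 130 CPM at week 4, 26.1, 44.5 and 76.0 CPM at week 8, and 30.0, 69 and 85.3 CPM at week 12. The diets overlapped at every week. Single animals with hardly any reads, such as the lowest CDAA animal of week 4 with 5 reads, lay beside others with up to 2828. Neither step was as large as 2 standard errors, and edgeR put its diet effect at week 12 at -0.03 on the log2 scale.

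Averaged over the 112 members, each animal had 1 value on the log2(CPM + 1) scale. On CSAA the 8 animals lay between 1.10 and 1.34 at week 4, with a mean of 1.25 ± 0.08 (SD, n = 8). At week 8 they had a mean of 1.48 ± 0.48 (SD, n = 8), with animal 504 at 2.62 and the other animals between 1.16 and 1.62. At week 12 the mean was 1.36 ± 0.43 (SD, n = 8), with animal 908 at 2.42 and the other animals between 1.11 and 1.38. Apart from these animals the control groups were at nearly the same level at the 3 weeks, 1.25, 1.32 and 1.21 on average.

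On CDAA the mean was 2.36 ± 0.42 (SD, n = 8) at week 4, with animal 303 at 1.34 and the others between 2.39 and 2.69. It was 3.58 ± 0.31 (SD, n = 8) at week 8, with animals from 3.14 to 4.04. At week 12 it was 4.42 ± 0.41 (SD, n = 8), with animal 1102 at 3.62 and the others between 4.04 and 4.78. Without animal 303 the mean at week 4 was 2.51 ± 0.10 (SD, n = 7), and without animal 1102 the mean at week 12 was 4.54 ± 0.27 (SD, n = 7). All animals of week 8 thus lay above all of week 4, and the groups of week 8 and week 12 overlapped through animal 1102, while the lowest of the other animals of week 12 and the highest of week 8 both rounded to 4.04.

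**Figure D3:**
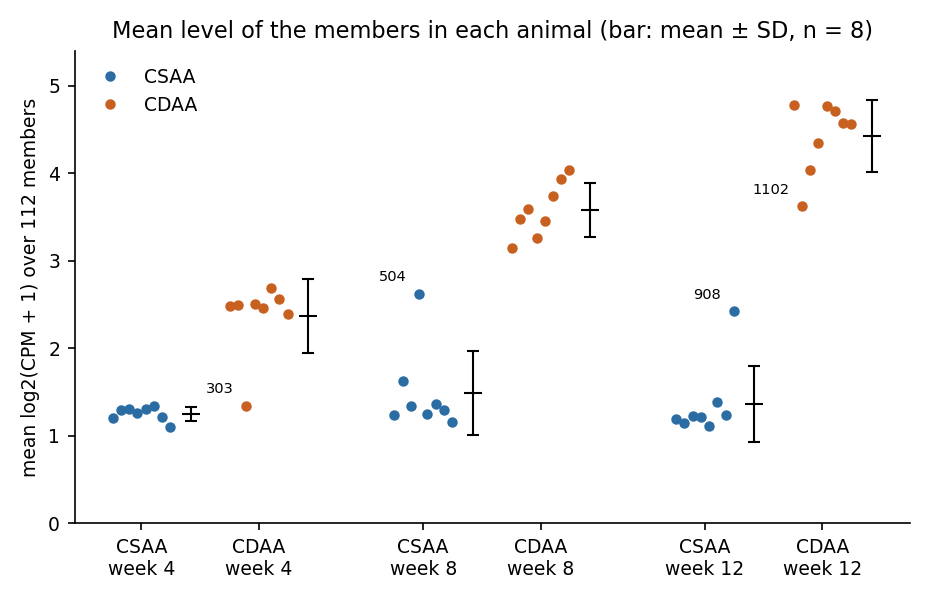
Mean log2(CPM + 1) over the 112 members in each of the 48 animals (points), with the mean and SD of each group of 8 (black). Animal 303 lies at 1.34 among the CSAA animals of week 4, animals 504 and 908 lie at 2.62 and 2.42, and animal 1102 lies at 3.62 within the range of CDAA at week 8.

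The same animals stood apart gene by gene. Animal 303 was the lowest of its group in 105 of the 112 members, and in 89 it lay at or under the highest CSAA animal of week 4. It was also the lowest in 60.4% of all 12029 genes, and in 96.0% of the 1542 other genes with a D of at least 1 at week 12. Animal 504 was the highest CSAA animal of week 8 in 109 members (49.1% of all genes, 93.3% of the 1542). Animal 908 was the highest CSAA animal of week 12 in 103 members (28.2% and 87.6%). The low value of animal 303 and the high values of animals 504 and 908 were therefore shared with other genes raised by the diet. Animal 1102 was the lowest CDAA animal of week 12 in 97 members (35.9% and 69.1%), and it lay below the highest CDAA animal of week 8 in 105. At week 8 animal 701 was the lowest CDAA animal in 60 members (18.2% and 24.6%). The overlap counts of 89 for animal 303 and 105 for animal 1102 have no share of all genes beside them, and nothing is read from them.

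How well the groups were separated depended on these animals. At week 4 every CDAA animal lay above every CSAA animal in 23 members, with 14.1% of all genes. At week 8 this was so in 82 members (46.6% of all genes) and at week 12 in 110 (54.1%). Of the 1542 other genes with a D of at least 1 at week 12, 45.5%, 86.4% and 98.3% were so separated at weeks 4, 8 and 12. Without animals 303, 504 and 908 the counts were 86, 110 and 110 members, and the shares of all genes were 37.9%, 52.2% and 55.4%. The shares of the 1542 were then 92.7%, 95.3% and 99.0%. These contrasts formed the rule, so the counts describe the members and nothing is read from them.

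Between the weeks on CDAA, every animal of week 8 lay above every animal of week 4 in 59 members (15.7% of all genes), and every animal of week 12 lay above every animal of week 4 in 102 (23.9%). Every animal of week 12 lay above every animal of week 8 in 2 members (0.815% of all genes). Without animal 1102, and also without 303, 504 and 908, that last count was 38 (3.67% of all genes). Of the 1542 other genes with a D of at least 1 at week 12, 19.5% had every animal of week 8 above every animal of week 4. In the same genes, 37.2% were so separated for week 12 above week 4 and 2.01% for week 12 above week 8. The share for week 12 above week 8 was 11.2% without animals 303, 504, 908 and 1102. Overlap between weeks 8 and 12 was thus shared with other genes. The counts describe the members and nothing is read from them.

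The member with the largest D at week 12, ENSRNOG00000027742, had a D of 2.20 at week 4, 3.46 at week 8 and 4.33 at week 12. Its CSAA animals lay between 3.03 and 6.66 CPM at week 4 (median 4.99), its CDAA animals between 7.28 and 54.7 (median 36), and the groups did not overlap. At week 8 CSAA ranged from 4.65 to 64.7 (median 7.95) and CDAA from 117 to 263 (median 166). At week 12 CSAA ranged from 3.79 to 57.2 (median 6.74) and CDAA from 208 to 335 (median 292). The lowest CDAA animal of week 4 was 303, the highest CSAA animals were 504 and 908, and the lowest CDAA animal of week 12 was 1102. Without these, CSAA stayed at or below 12.3 CPM at week 8 and 8.02 at week 12. Its first step was 1.26 with a standard error of 0.53 and its second step 0.87 with a standard error of 0.59, the second being under 2 standard errors.

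The most abundant member on CDAA at week 12, ENSRNOG00000003357, took a different course. On CDAA its lowest, median and highest animals had 208, 1089 and 1569 CPM at week 4, 1470, 1869 and 2548 CPM at week 8, and 1138, 1828 and 2249 CPM at week 12. On CSAA they had 161, 186 and 222 CPM at week 4, 115, 184 and 627 CPM at week 8, and 65.4, 117 and 477 CPM at week 12. The diets overlapped at week 4 through animal 303. Its CDAA level did not rise after week 8, with means of 1885 ± 348 CPM (SD, n = 8) and then 1816 ± 325 CPM (SD, n = 8). D nevertheless went from 1.97 through 2.58 to 3.18, because the CSAA mean changed by -0.76 on the log2(CPM + 1) scale from week 8 to week 12. The steps were 0.60 and 0.61 with standard errors of 0.44 and 0.43, both under 2 standard errors. The animals that stood apart are included here too. Without animals 303, 504 and 908, D was 2.23, 2.77 and 3.45.

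**Figure D4:**
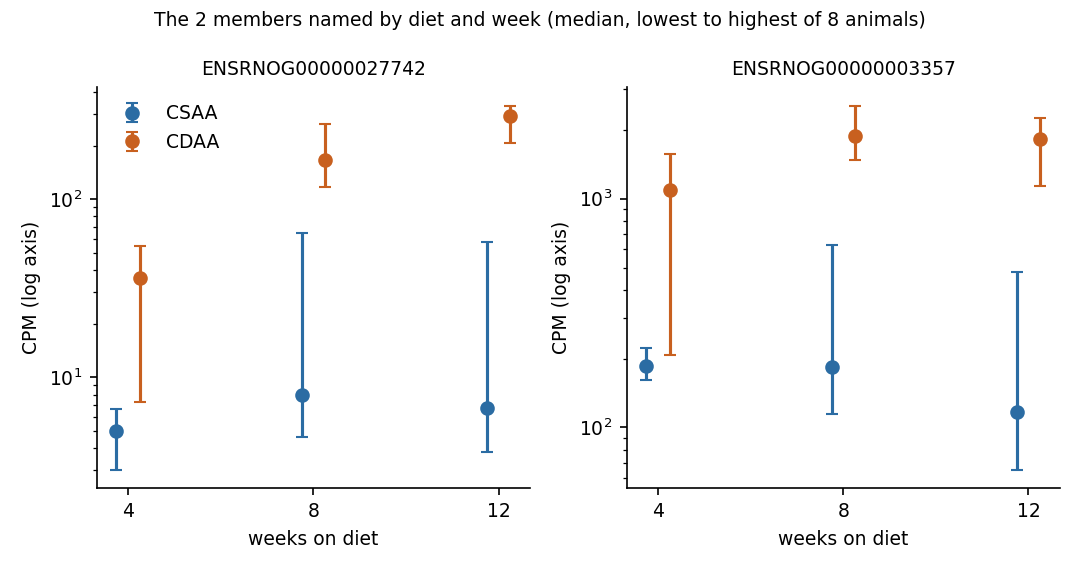
CPM (log axis) of ENSRNOG00000027742 (left) and ENSRNOG00000003357 (right) by week, as the median of 8 animals with bars from the lowest to the highest animal, CSAA in blue and CDAA in orange. On CDAA the left gene climbs from a median of 36 to 166 and 292, while the right gene is at 1869 at week 8 and 1828 at week 12.

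One more member did not rise on CDAA after week 8. Its CDAA mean was 22 ± 8.84 CPM (SD, n = 8) at week 8, and at week 12 it was 18.8 ± 3.86 CPM (SD, n = 8). On CSAA the means were 4.23 ± 2.65 CPM (SD, n = 8) and 1.73 ± 1.97 CPM (SD, n = 8). The change on CSAA, -0.97 on the log2(CPM + 1) scale, made up its second step.

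At the other end, some members were nearly silent on CSAA and climbed far on CDAA. The member with the largest CDAA rise, 3.38, had CSAA medians of 0.224, 0.468 and 0.448 CPM at the 3 weeks. On CDAA its lowest, median and highest animals had 0.733, 2.08 and 2.90 CPM at week 4, 3.17, 8.33 and 13.9 CPM at week 8, and 10.7, 37.6 and 58.8 CPM at week 12. The member with the largest second step, 1.86 with a standard error of 0.51, had CDAA medians of 4.58, 14.1 and 62.0 CPM against 0.70, 1.16 and 1.02 on CSAA. In both, animal 303 was the lowest CDAA animal at week 4, animals 504 and 908 were the highest CSAA animals and 1102 was the lowest CDAA animal at week 12.

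The member with the lowest mean CPM on CDAA at week 12 (but not the lowest RPKM) had a median of 4.06 CPM there, from 1.03 to 7.17, after medians of 0.291 at week 4 and 1.42 at week 8. On CSAA the medians were 0.111, 0.0589 and 0.123 CPM, with 0 reads in some animals of each week. Its values at week 4 rested on 1 to 13 reads per CDAA animal.

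In the fit of all genes with edgeR's quasi-likelihood test, which called a gene higher at a log2 fold change of 1 or more and a Benjamini-Hochberg adjusted p below 0.01, all 112 members were tested among 12756 genes. The diet effect was called higher in 78 members at week 4 (15.7% of all genes), 106 at week 8 (18.1%) and 110 at week 12 (19.4%), and in none lower. The median log2 fold change of the members was 1.58, 2.3 and 3.21, and that of all genes -0.02, 0.05 and -0.09. Since the rule used these contrasts, the counts again only describe the members.

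The growth of the diet effect between weeks was called in the same fit. From week 4 to week 8, 5 members were called (1.22% of all genes), from week 8 to week 12, 10 members (2.92%), and from week 4 to week 12, 48 members (2.25%). A single gene, which was a member, was called at both steps. Without animals 303, 504 and 908 the counts were 21, 14 and 89 members, with 1.89%, 4.27% and 4.26% of all genes, and 3 genes, 2 of them members, were called at both steps. Most members therefore met the rule by the size of their mean steps, without each step passing a test across all genes.

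edgeR and the rule work on different scales. edgeR compares fold changes of counts, while the rule adds 1 CPM before taking logs, which holds down the differences of weakly expressed genes. The edgeR step from week 4 to week 8 was at or below 0 in 12 members, and the step from week 8 to week 12 was above 0 in all 112. In these 12 the median of the mean CPM was 0.233 on CSAA and 3.15 on CDAA at week 4, and 1.16 on CSAA at week 8. Without animals 303, 504 and 908, 3 members had a first edgeR step at or below 0. The parts of the scale and of these animals in the 12 were not tested. In the member with the lowest edgeR value, the log2 fold change was 6.11, 3.79 and 5.04 at weeks 4, 8 and 12, while D was 2.10, 2.65 and 3.68. Its CSAA animals had a median of 0.0247 CPM at week 4 and of 0.178 CPM at week 8, where animal 504 stood at 3.66 and the others at or below 0.750. On CDAA its median was 6.26, 15.3 and 24 CPM. Its level on CDAA rose at both steps, while its fold over CSAA was lower at week 8 than at week 4. Its log2 fold change without animals 303, 504 and 908 was 6.31, 5.12 and 7.80, again lower at week 8 than at week 4 but highest at week 12.

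The limits of the rule cut through a continuous range of values. The members with the smallest first steps had values of 0.509, 0.510 and 0.522, and the nearest genes outside had 0.497, 0.488 and 0.486. At the second step the nearest members had 0.506, 0.516 and 0.525, and the nearest genes outside 0.499, 0.499 and 0.498. A step under 0.6 was found in 45 of the 112 members. Failing by the first step alone, 484 genes stayed outside, of which 39 had a step of at least 0.4. The second step alone kept out 231 genes, of which 50 had a step of at least 0.4, and the limit on D at week 12 alone kept out 5.

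The 112 members were 6.77% of the 1654 genes with a D of at least 1 at week 12. Of these 1654 genes, 343 had a first step of at least 0.5 and 596 a second step of at least 0.5. Growth at both steps was thus found in a small part of the genes that were higher on CDAA at week 12. The mirrored rule, with falls of at least 0.5 at each step and a D of at most -1 at week 12, gave 49 genes, 5.61% of 874.

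Gene length is given as a description without a test. It was taken from the ratio of CPM to RPKM and had a median of 3.85 kb in the members, with quartiles of 2.62 and 5.61 kb, and of 2.26 kb over all 12029 genes, with quartiles of 1.51 and 3.44 kb. It was 2.72 kb in the 1542 other genes with a D of at least 1 at week 12 and 1.81 kb in the 49 genes of the mirrored rule. With all genes cut into 4 equal classes by length, the shortest class held 4 members, the next 17, the next 28 and the longest 63. Genes with a D of at least 1 at week 12, members included, numbered 288, 344, 435 and 587 in these classes. A lean to long genes was thus also present among the genes raised by the diet as a whole. D itself followed length across all genes. Its median at week 12 was -0.22 in the shortest class and 0.27 in the longest, and at week 4 it was -0.14 and 0.07. The part of length in the choice of members was measured in 1 way, by removing the length trend of each animal before the rule was applied. This gave 89 genes, of which 64 were among the 112 members.

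The choice of members changed with single animals and with the scale. Without animal 303 the rule gave 82 genes, 81 of them members, and without animal 504 it gave 120 genes, 85 of them members. Without animal 908 it gave 167 genes and without animal 1102 it gave 145, with all 112 members among them in both cases. In the rule without each of the 48 animals in turn, 54 members were found every time. With fold changes from edgeR in place of D, 138 genes met the same limits, 62 of them members. Found again under each of 7 other settings (TMM and RLE scaling, edgeR, limma-voom, group medians, the length correction, and without animals 303, 504 and 908) were 36 members, and 28 were also found without each animal in turn. ENSRNOG00000027742 met the rule without each of the 48 animals, and ENSRNOG00000003357 did so in 44 of 48 cases.

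**Figure D5:**
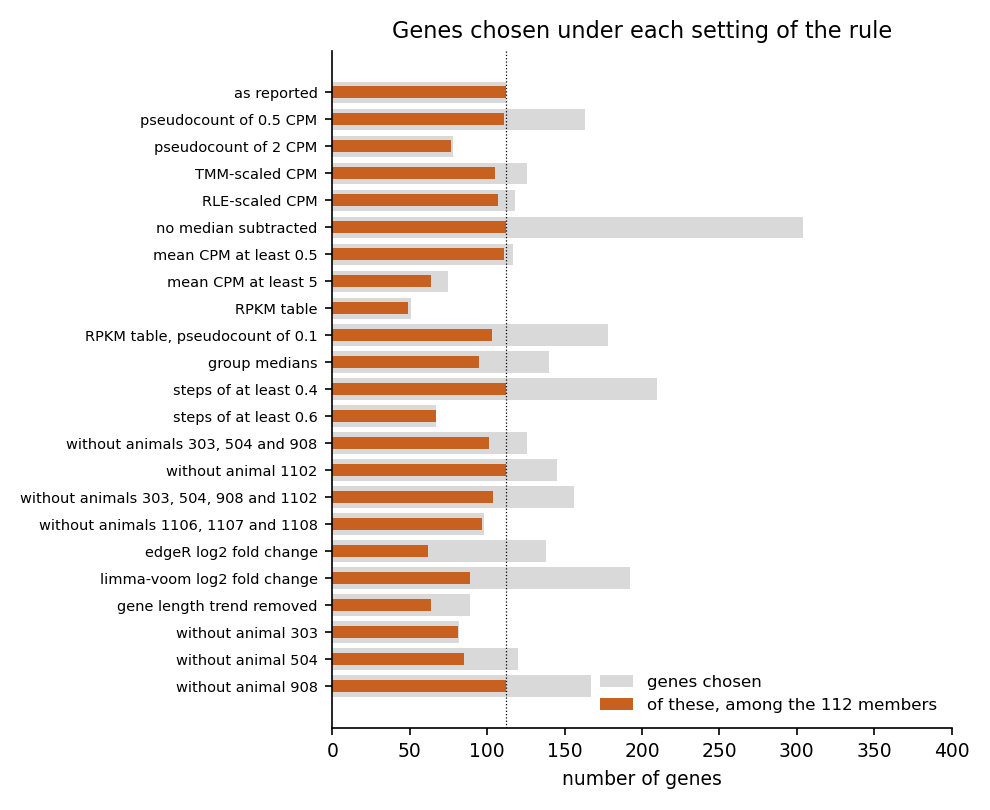
Number of genes chosen by the rule under each setting (grey bars) and how many of these are among the 112 members (orange bars), with the reported 112 as a dotted line. The grey bars run from 51 with the RPKM table to 304 with no median subtracted, and the orange bar is shortest, at 49, with the RPKM table.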

How the data were processed

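Liver RNA of 48 rats was analysed, 8 per diet and week, grouped by the sample labels and joined to the tables by column name, and 0 columns were left over. Single-end reads were aligned by the authors with STAR (rat genome Rnor_6.0) and assigned to Ensembl genes with featureCounts, and the counts were deposited as raw values. A table of RPKM, also from the authors, was deposited beside them and divides by the length of each gene and by the library's reads on genes. The submitters' processing notes also name FastQC 0.11.2. The library kit marks strand, and the strand setting of the counting is not given in the sources used here, so overlapping genes may share reads.

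The members and the lists were chosen with earlier results of these data known. The rule was applied to the counts in Python 3.11.15, with a pseudocount of 1 CPM and a mean of at least 1 CPM. For the tests, edgeR 4.0.16 (R 4.3.3) was fitted to the counts of all 48 animals at once, with TMM scaling, the quasi-likelihood method and diet by week interactions. It covered the 12756 genes that reached 1 CPM in 5 or more of the 8 animals of any group. Calls needed an adjusted p (Benjamini-Hochberg) below 0.01 together with a log2 fold change of 1 or more in size. As alternatives, limma-voom (limma 3.58.1) and DESeq2 1.42.0 with its independent filtering turned off were run. Rule and tests were also run on simulated counts, and the outcomes are not given here. For the rule, the simulation left out weakly expressed genes and animals that stand apart. Its planted steps were larger than the median steps of the members. It therefore does not show how well the rule works for genes like the members. Depth was 13619274 to 22284359 reads per animal, and counting error and the spread between animals were not separated for the members. The labels name no batch.

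Members with a symbol were to be named by size of D at week 12, abundance, nearness to the limits and change per diet. Without symbols, 2 identifiers were printed, the member with the largest D at week 12 and the most abundant member on CDAA at week 12, and other members were described by their place. The 24 gene lists planned could not be joined and were not analysed here.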

Additional observations from a re-analysis of the deposited data

Results flagged for a closer look

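The mean over the members, their summed CPM and the 2 members given by identifier were examined in the 6 groups for an animal that stood apart by Dixon's criterion for 8 values (the gap to the nearest animal as a share of the range of the group). Of 24 groups, 11 held such an animal, where chance alone would flag about 1 in 20. The values within an animal are not independent, since they come from the same library.

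In CDAA at week 4, animal 303 was apart with a mean log2(CPM + 1) over the members of 1.34, with 3.05 for ENSRNOG00000027742 and with 7.71 for ENSRNOG00000003357. In CSAA at week 8, animal 504 was apart with a mean of 2.62, a summed CPM of 1640 and a value of 6.04 for ENSRNOG00000027742. In CSAA at week 12, animal 908 was apart with a mean of 2.42, a summed CPM of 1322, a value of 5.86 for ENSRNOG00000027742 and of 8.90 for ENSRNOG00000003357. In CDAA at week 12, animal 1102 was apart in ENSRNOG00000003357 with 10.15, but not in the mean over the members.

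Taken gene by gene, animal 303 was apart by the same criterion in 50 of 112 members, in 23.7% of all 12029 genes and in 60.2% of the 1542 other genes with a D of at least 1 at week 12. For animal 504 these values were 59 members, 6.35% and 21.4%, for animal 908 they were 57 members, 5.52% and 31.6%, and for animal 1102 they were 12 members, 3.38% and 8.04%. What made these animals differ was not tested.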

How the results depend on the processing

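The member count of 112 was recomputed under 19 settings besides leaving out single animals, and it stayed within 1.5 times of 112 under 13 of them. It was 304 with no median subtracted, 51 with the RPKM table, 210 with steps of at least 0.4, 67 with steps of at least 0.6 and 192 with limma-voom fold changes. With a pseudocount of 0.1 on the RPKM table, chosen after seeing the data, it was 178. Leaving out 1 animal at a time gave 82 to 167 genes. Further settings chosen after seeing the data, without animals 303, 504, 908 and 1102, without animals 1106 to 1108 and with the length trend removed, gave 156, 98 and 89 genes. The number of genes called higher by edgeR stayed within 1.5 times in 27 of 30 recomputed counts. Without animals 303, 504 and 908 it was 241 in place of 155 for the diet by week term from week 4 to 8, and 543 in place of 287 from week 4 to 12, for which DESeq2 gave 468. Without the same animals the members above every CSAA animal at week 4 numbered 86 in place of 23, and without animal 1102 as well, the members with every CDAA animal of week 12 above every one of week 8 numbered 38 in place of 2. The 12 recomputed values of D of the 2 members given by identifier moved by less than 1 SD between animals, pooled over both diets of the week with the animals that stood apart included. The largest move was in ENSRNOG00000027742, whose D at week 12 was 4.33 with all animals and 4.71 without animals 303, 504 and 908. No paired analysis was possible because each animal was sampled once and the groups share no animal numbers. Alternatives for gene lists were not run, since the lists could not be joined. Depth limits the members with few reads on CSAA.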
